A study of Mus musculus with 12 samples.

Results

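Isocitrate dehydrogenase 2 (IDH2) is the mitochondrial enzyme that turns isocitrate into 2-oxoglutarate and makes NADPH from NADP+, which mitochondria use to keep glutathione and thioredoxin reduced. IDH1 carries out the same reaction in the cytosol, where the NADPH also serves lipid synthesis, and the NAD+-dependent IDH3, built from the products of *Idh3a*, *Idh3b* and *Idh3g*, does it within the citric acid cycle. Mouse liver is also strongly sex-dependent: steroid sulfotransferases, steroid dehydrogenases and many cytochromes P450 differ between females and males under the control of growth hormone. The comparison described here asks how the liver transcriptome of females lacking *Idh2* differs from that of WT females.

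The members are 7 liver libraries of the 12 in the series, those whose names carry the letter F: 3 from female IDH2 KO mice and 4 from female WT mice. IDH2 KO mice carried a germ-line deletion of *Idh2* (idh2-/-), so the gene was missing in every tissue and from the start of life, and WT mice were their littermates. Both groups had the C57BL/6N background and were killed at 8 to 10 weeks of age, and no treatment is named for either. Each library was made from the whole liver tissue of 1 mouse, so that fewer cells of a type and less RNA per cell cannot be told apart.

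The 7 libraries held between 16203874 and 25019649 reads assigned to genes. Between 22.8% and 50.4% of those reads came from mitochondrial DNA transcripts, on average 41.5% ± 10.5 in IDH2 KO females and 38.2% ± 10.5 in WT females (SD, n = 3 and 4; exact two-sided permutation test, p = 0.714, smallest possible p = 0.0286). IDH2 KO female 3 stood apart. It had reads in 8531 genes, against 11303 and 11556 genes in the other IDH2 KO females and 11521 to 12643 in the WT females. Of the 7466 genes tested, 769 had no read in IDH2 KO female 3, against 8 to 28 in the other 6 libraries, and for 1343 its level was more than 4 times below the lowest of the other 6. Its median correlation with the other libraries across genes was 0.867, where the others had 0.963 to 0.972. Each comparison was therefore made with all 7 libraries and again with IDH2 KO female 3 left out. No library had a read of the Y-linked gene *Eif2s3y*, and all had reads of *Xist*, the RNA of the inactive X chromosome. The hepatocyte markers *Alb*, *Apoa1* and *Ttr* were among the genes with reads in all libraries, and the summed level of the 12 hepatocyte markers ranged from 182841 to 240611 CPM (reads of a gene scaled to library size) in IDH2 KO females and from 157240 to 225051 CPM in WT females.

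The deleted gene followed the labels. *Idh2* (chr7:80094846-80115392, minus strand, GRCm38) had 1, 2 and 1 reads in the IDH2 KO females, against 1584, 1418, 1814 and 2363 reads in the WT females. On the CPM scale these are 0.0386, 0.104 and 0.0695 CPM in IDH2 KO females, against 75.5, 46.2, 82.6 and 101.3 CPM in WT females. The groups did not overlap, and *Idh2* was 1101-fold lower in IDH2 KO females (exact 95% interval of the read ratio 430 to 4042, counting error only; adjusted p = 7.94e-05). None of the NAD+-dependent subunits was called: *Idh3a* had 24.5, 22.0 and 7.57 CPM in IDH2 KO females, against 17.4 to 29.1 CPM in WT females. *Idh3b* and *Idh3g* had log2 fold changes of 0.66 (SE 0.44) and -0.28 (SE 0.57), and those of *Idh3a* and *Idh3g* were 0.02 and 0.11 without IDH2 KO female 3. *Idh1* had no read in any library, so its level was not measured here.

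With all 7 libraries, 5 genes were higher and 6 were lower in IDH2 KO females at an adjusted p under 0.05 in edgeR's quasi-likelihood test. These are 0.067% and 0.0804% of the 7466 genes tested, and 302 genes had an unadjusted p under 0.05. The genes that rose were *Sult2a3*, *Sult2a1*, *Gm15674*, *Igha* and *Junb*. Those that fell were *Idh2*, *Hsd3b5*, *Gm41844*, *Gm40812*, LOC108169013 and LOC108169093. Without IDH2 KO female 3, 13 genes were higher and 14 were lower of 7963 tested, which is 0.163% and 0.176%. The estimated spread between mice also shrank, with a common dispersion of 0.23 with 7 libraries and 0.0992 without IDH2 KO female 3. Of the 11 genes called with 7 libraries 8 were called again without IDH2 KO female 3 (72.7% of the 11 and 29.6% of the 27); *Sult2a3*, *Sult2a1* and LOC108169093 were not. The 7-library calls also depended on other single libraries. With IDH2 KO female 1, WT female 1, WT female 2 or WT female 3 left out in turn, edgeR called 0 genes higher and 1 or 2 lower, with 181 to 401 genes at an unadjusted p under 0.05, and with WT female 4 left out it called 2 higher and 2 lower. DESeq2 with all 7 libraries called 29 higher and 23 lower. The 27 calls made without IDH2 KO female 3 depended on single libraries too. With WT female 1, 2, 3 or 4 left out as well, 20, 27, 18 and 17 of the 27 were kept.

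**Figure D1:**
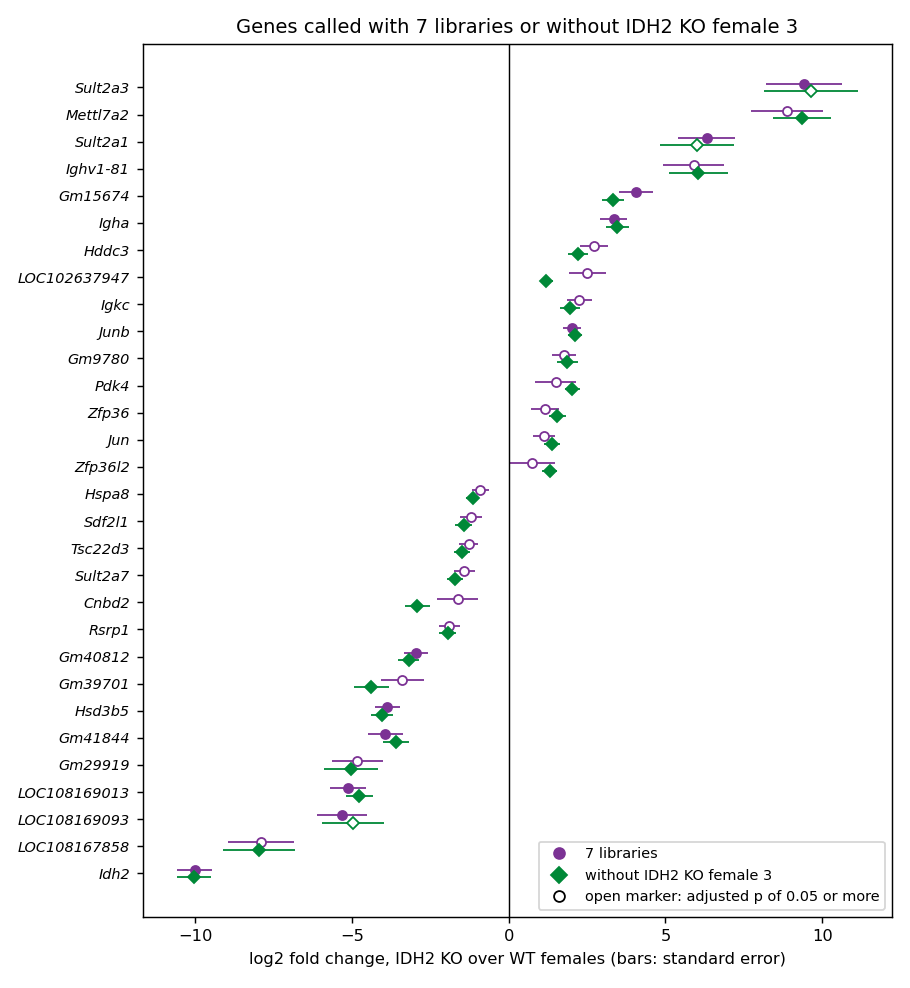
Log2 fold change of IDH2 KO over WT females for the 30 genes called with 7 libraries or without IDH2 KO female 3, with standard errors from the fit as bars; open markers did not pass the threshold in that fit. Fold changes had the same sign in both fits for all 30 genes, from *Idh2* at the low end to *Sult2a3* at the high end; those of *Sult2a3*, *Mettl7a2*, *Ighv1-81* and LOC108167858 rest on groups with 0 to 2 reads and depend on the prior count.

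Of the genes called with 7 libraries, *Sult2a3* and *Sult2a1* had the highest fold changes. These cytosolic enzymes transfer sulfate to bile acids and hydroxysteroids such as dehydroepiandrosterone, and in mouse liver they are known as female-predominant genes. The genes of this Sult2a family lie side by side on chromosome 7, from *Sult2a5* (chr7:13623967-13670807) to *Sult2a7* (chr7:14465051-14494230). *Sult2a1* had 406, 159 and 492 CPM in IDH2 KO females, against 3.67, 0.717, 1.82 and 11.4 CPM in WT females. The lowest IDH2 KO female was above the highest WT female, and *Sult2a1* rose by 6.32 on the log2 scale (SE 0.91, adjusted p = 0.0357). *Sult2a3* had 23.4, 1.41 and 7.85 CPM in IDH2 KO females, whereas 3 WT females had no read of it and WT female 4 had 1 read. That is 745 reads in IDH2 KO females and 1 in WT females, a 1214-fold ratio with an exact 95% counting interval of 217 to 48028 (adjusted p = 0.0289).

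A further 4 members lay above all WT females in all 3 IDH2 KO females but were not called. *Sult2a2* had 259.5, 146 and 191 CPM in IDH2 KO females, against 13.2, 2.44, 10.02 and 42.0 CPM in WT females (adjusted p = 0.276). *Sult2a5* had 33.3, 15.3 and 42.1 CPM in IDH2 KO females and 0.652 to 3.99 CPM in WT females (adjusted p = 0.0705). *Sult2a4* and *Sult2a6*, named after their values were seen, were between 10.7 and 59.9 CPM in IDH2 KO females and between 0.293 and 6.82 CPM in WT females. *Sult2a7*, the last gene of the cluster, ran the other way: it had 4.52, 5.53 and 8.54 CPM in IDH2 KO females, against 16.3, 17.6, 14.0 and 18.5 CPM in WT females. It fell by 1.72 on the log2 scale without IDH2 KO female 3 (SE 0.25, adjusted p = 0.00733) and was not called with it (adjusted p = 0.369).

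Summed over the family, the level was 767, 354 and 816 CPM in IDH2 KO females, against 38.1, 22.0, 29.7 and 86.4 CPM in WT females. WT female 4 was the highest WT library for *Sult2a1* to *Sult2a6*, so the WT females also varied among themselves. Without IDH2 KO female 3 the 6 members kept fold changes of 2.85 to 9.64 on the log2 scale, and none of the 6 passed the threshold (adjusted p from 0.109 to 0.512). Male livers, whose CPM were scaled with all 12 libraries and not with the 7, had a family sum of 4.90 and 2.93 CPM in IDH2 KO males and 2.27 to 3.78 CPM in WT males. Reads of 50 bases cannot always be placed within this family: of the stretches of 50 bases in GENCODE transcripts, 62.1% of those of *Sult2a2*, 34.5% of *Sult2a5*, 33.2% of *Sult2a1* and 25.5% of *Sult2a4* also occur in another gene. The share was 8.36% for *Sult2a3*, 6.63% for *Sult2a6* and 0% for *Sult2a7*, so the values of single members are less certain than their sum, *Sult2a7* excepted.

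**Figure D2:**
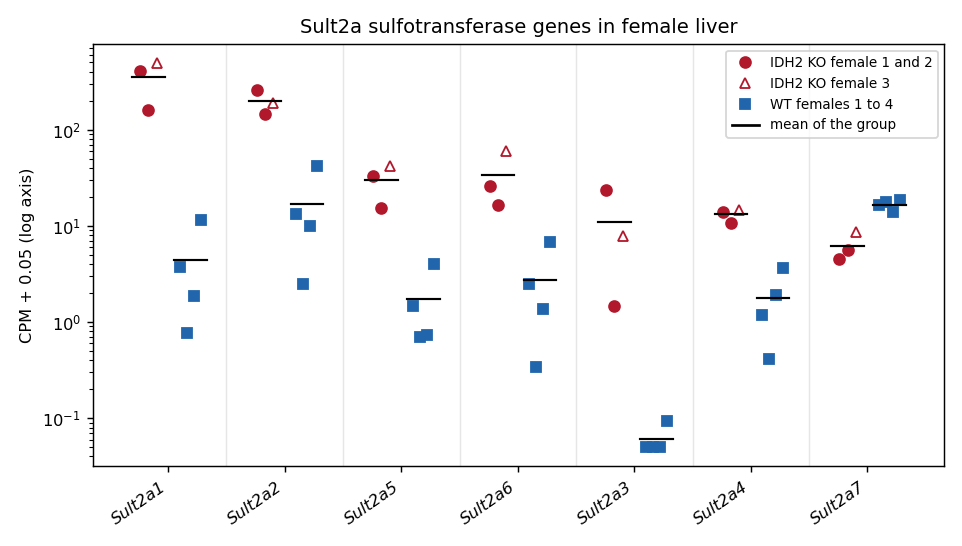
Level of each Sult2a gene in each female library, as CPM plus 0.05 on a log axis, with IDH2 KO females left of WT females and a line at the mean of each group. The 3 IDH2 KO females lie above the 4 WT females for *Sult2a1* to *Sult2a6*, and below them for *Sult2a7*.

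The windows at the start of 4 of these genes are shown to show how alike members of the cluster are there; those of *Sult2a1*, *Sult2a2* and *Sult2a7* were not analysed here. They are RefSeq sequences on GRCm38.p6, 250 bases before to 50 bases after the annotated start, written 5′ to 3′ on the strand of the gene. Capitals mark the 3 stretches of at least 10 bases that all 4 windows hold.
Sult2a3 (chr7:14122999-14123298, minus strand): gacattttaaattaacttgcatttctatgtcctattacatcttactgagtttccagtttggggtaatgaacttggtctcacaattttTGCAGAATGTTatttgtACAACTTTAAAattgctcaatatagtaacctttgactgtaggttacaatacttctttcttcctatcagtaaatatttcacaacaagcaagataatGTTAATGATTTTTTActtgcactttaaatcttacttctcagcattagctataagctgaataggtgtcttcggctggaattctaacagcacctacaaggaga
Sult2a4 (chr7:13989539-13989838, minus strand): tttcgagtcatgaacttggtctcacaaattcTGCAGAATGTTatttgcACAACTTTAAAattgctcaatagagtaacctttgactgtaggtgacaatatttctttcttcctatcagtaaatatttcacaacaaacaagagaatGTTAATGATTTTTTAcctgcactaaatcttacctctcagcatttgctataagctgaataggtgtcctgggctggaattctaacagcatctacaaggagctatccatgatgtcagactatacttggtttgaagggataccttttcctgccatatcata
Sult2a5 (chr7:13623717-13624016, plus strand): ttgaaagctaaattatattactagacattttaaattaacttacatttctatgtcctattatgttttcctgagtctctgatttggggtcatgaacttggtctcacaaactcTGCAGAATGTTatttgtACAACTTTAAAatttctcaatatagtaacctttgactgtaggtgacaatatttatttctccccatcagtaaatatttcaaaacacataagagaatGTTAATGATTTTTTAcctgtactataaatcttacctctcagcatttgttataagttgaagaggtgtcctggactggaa
Sult2a6 (chr7:14254821-14255120, minus strand): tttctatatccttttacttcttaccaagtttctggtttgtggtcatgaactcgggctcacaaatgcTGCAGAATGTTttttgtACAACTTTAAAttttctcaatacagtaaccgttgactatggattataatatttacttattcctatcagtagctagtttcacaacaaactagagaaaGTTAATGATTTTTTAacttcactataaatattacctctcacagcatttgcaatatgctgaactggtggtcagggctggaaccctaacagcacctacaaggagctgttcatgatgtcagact

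Aligned in pairs, the 4 windows shared between 80.9% (*Sult2a5* and *Sult2a6*) and 92.6% (*Sult2a3* and *Sult2a4*) of their aligned bases. Each held TGCAGAATGTT, ACAACTTTAAA and GTTAATGATTTTTTA once and in this order, with the first bases of the first pair 17 bases apart in all 4 and those of the second pair 95 bases apart in *Sult2a3*, *Sult2a4* and *Sult2a5* and 96 apart in *Sult2a6*. Searched on both strands of 32851 RefSeq windows of the same length, TGCAGAATGTT was in 10 (0.0304%), ACAACTTTAAA in 11 (0.0335%) and GTTAATGATTTTTTA in these 4 only (0.0122%). The stretches were read from the 4 windows themselves and do not overlap, and a match is a description of letters, not a measured site.

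Among called genes with a known product, the largest fall after *Idh2* was that of *Hsd3b5* (chr3:98618634-98630252), a ketosteroid reductase of the 3-beta-hydroxysteroid dehydrogenase family that is known as a male-predominant gene in mouse liver. It had 0.579, 0.939 and 1.04 CPM in IDH2 KO females, against 9.92, 13.6, 13.4 and 12.8 CPM in WT females. The libraries of each group lay close together, IDH2 KO female 3 included, and *Hsd3b5* fell by 3.87 on the log2 scale (SE 0.40, adjusted p = 0.00877), or by 4.04 without IDH2 KO female 3 (adjusted p = 0.000135). Of its stretches of 50 bases, 21.2% also occur in other transcripts.

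Of 24 male-predominant liver genes tested, 21 had a negative fold change, with a median of -0.55 on the log2 scale, or -0.81 without IDH2 KO female 3, where the median of all genes tested was 0.00 and 50% of them were positive (50.4% without IDH2 KO female 3). *Hsd3b5* was the only one called in either fit, and 7 of the 24 lay below all WT females in all 3 IDH2 KO females (29.2%, against 3.47% of all genes tested). The sum of the list was 1573, 3809 and 9911 CPM in IDH2 KO females, against 5966 to 8186 CPM in WT females, so that IDH2 KO female 3 was above every WT female and the other IDH2 KO females were below. *Slco1a1*, an uptake transporter of organic anions, had 2.05, 43.9 and 5.002 CPM in IDH2 KO females, against 113, 259, 73.0 and 85.7 CPM in WT females. *Cyp2d9*, a cytochrome P450, had 44.9, 44.3 and 57.8 CPM in IDH2 KO females, against 71.6, 107, 98.9 and 64.1 CPM in WT females. The groups did not overlap for either gene, but their adjusted p-values were 0.963 and 0.983. Among 31 female-predominant genes, 21 had a positive fold change and 8 lay above all WT females (25.8%, against 3.09% of all genes tested); 6 of these 8 are Sult2a genes, and the others were *Cyp17a1*, a steroid hydroxylase, and *Cyp3a16*, a cytochrome P450. Both were named after their values were seen and were not called (adjusted p = 0.983 each). The female-predominant sums overlapped, at 3770, 3978 and 5826 CPM in IDH2 KO females, against 2445 to 4053 CPM in WT females. *A1bg*, also on the female-predominant list, had 200.3, 228 and 137 CPM in IDH2 KO females, against 364, 466, 211 and 886 CPM in WT females. IDH2 KO female 2 was above WT female 3, so the groups overlapped, and *A1bg* was not called (adjusted p = 0.983).

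Immediate early genes, which cells transcribe within minutes of a stimulus, were the next group. *Junb*, a subunit of the transcription factor AP-1, had 52.1, 55.9 and 43.8 CPM in IDH2 KO females, against 13.4, 15.2, 8.65 and 13.0 CPM in WT females. Every IDH2 KO female was well above every WT female, and *Junb* rose by 2.01 on the log2 scale (SE 0.29, adjusted p = 0.0357), or by 2.11 without IDH2 KO female 3 (adjusted p = 0.000603). *Jun*, another AP-1 subunit, had 9.96, 8.14 and 4.79 CPM in IDH2 KO females, against 3.39 to 3.68 CPM in WT females. It was not called with 7 libraries (adjusted p = 0.834) and rose by 1.38 without IDH2 KO female 3 (SE 0.26, adjusted p = 0.0416). That call was lost when WT female 1, WT female 3 or WT female 4 was left out as well.

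*Zfp36*, which encodes tristetraprolin, a protein that promotes decay of AU-rich mRNAs, behaved alike: it had 115, 124 and 37.0 CPM in IDH2 KO females, against 45.6, 23.1, 55.8 and 39.5 CPM in WT females. IDH2 KO female 3 lay within the WT range, and the rise of 1.55 on the log2 scale was called without it (adjusted p = 0.0366) and not with it (adjusted p = 0.983). The paralog *Zfp36l2* had 50.3, 31.2 and 2.15 CPM in IDH2 KO females, against 13.3 to 19.9 CPM in WT females, and it too was called higher only in the fit without IDH2 KO female 3 (adjusted p = 0.0472). Leaving out WT female 1 or WT female 4 as well lost the calls of both genes. Leaving out WT female 3 as well lost that of *Zfp36l2*. *Egr1*, a zinc finger transcription factor, had 82.4, 125 and 18.8 CPM in IDH2 KO females, against 19.4, 3.36, 5.56 and 10.9 CPM in WT females (adjusted p = 0.402 with 7 libraries and 0.229 without IDH2 KO female 3). *Ier2* and *Id1* were above all WT females in all 3 IDH2 KO females and were not called in either fit. *Ier2* had 25.9, 23.7 and 46.5 CPM in IDH2 KO females, against 9.58 to 13.4 CPM in WT females.

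Over the whole list, 31 of 47 immediate early genes were tested, 1 was called higher with 7 libraries (0.067% of all genes tested were) and 3 of 32 without IDH2 KO female 3 (0.163% of all genes tested were), and none was called lower. With 7 libraries 19 of 31 had a positive fold change (median 0.20); without IDH2 KO female 3 it was 25 of 32 (median 0.48). The summed level of the list was 656, 593 and 333 CPM in IDH2 KO females, against 284 to 336 CPM in WT females. IDH2 KO female 3 was thus at the WT level in the sum, but above every WT female for *Junb*, *Ier2*, *Jun* and *Id1*. Of the 31 genes tested, 6 lay above all WT females in all 3 IDH2 KO females (19.4%, against 3.09% of all genes tested). The reason for the position of IDH2 KO female 3 was not tested.

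*Pdk4*, the kinase that switches off pyruvate dehydrogenase and is known to rise with fasting, showed the same split. It had 22.0, 17.0 and 1.60 CPM in IDH2 KO females, against 5.25, 4.79, 4.01 and 5.15 CPM in WT females. IDH2 KO female 3 lay below every WT female, so *Pdk4* was not called with 7 libraries (adjusted p = 0.983), while without IDH2 KO female 3 it rose by 2.03 on the log2 scale (SE 0.23, adjusted p = 0.000937). *Pdk4* was the only gene called among 28 tested of the citric acid cycle and pyruvate entry, and among 15 tested PPARA-responsive genes, in that fit. The PPARA-responsive *G0s2*, an inhibitor of the triglyceride lipase ATGL, had 93.0, 34.4 and 158 CPM in IDH2 KO females, against 37.9 to 44.1 CPM in WT females, and was not called.

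**Figure D3:**
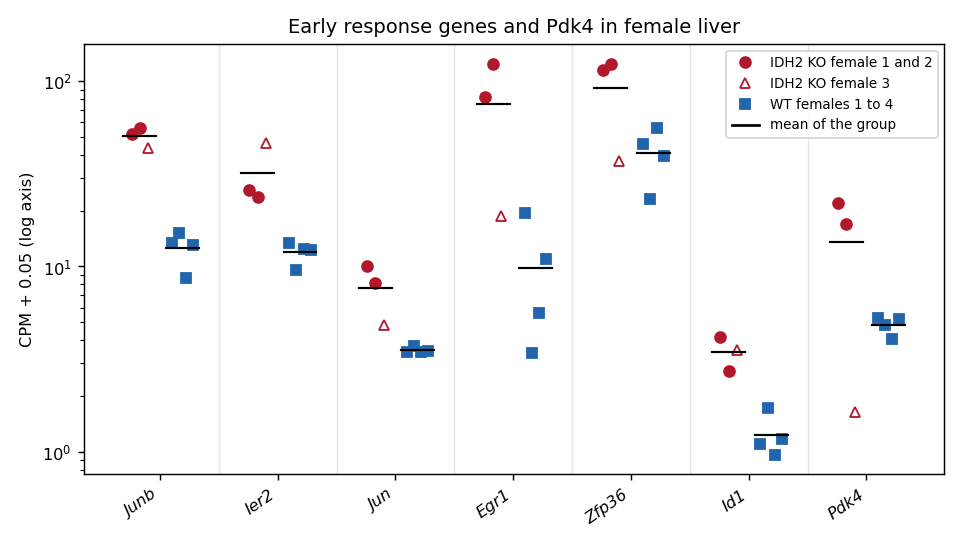
Level of 6 early response genes and *Pdk4* in each female library, as CPM plus 0.05 on a log axis, with IDH2 KO females left of WT females and a line at the mean of each group. All IDH2 KO females lie above WT for *Junb*, *Ier2*, *Jun* and *Id1*; IDH2 KO female 3 (open triangle) lies among the WT females for *Egr1* and *Zfp36* and below them for *Pdk4*.

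Immunoglobulin genes lay higher in IDH2 KO females. *Igha*, the constant region of IgA, had 22.7, 12.8 and 13.4 CPM in IDH2 KO females, against 1.48, 2.64, 1.23 and 1.03 CPM in WT females. The groups were far apart and IDH2 KO female 3 lay with the other IDH2 KO females; *Igha* rose by 3.35 on the log2 scale (SE 0.43, adjusted p = 0.0289), or by 3.46 without IDH2 KO female 3 (adjusted p = 0.000603). *Igkc*, the kappa light chain constant region, had 13.5, 9.02 and 19.0 CPM in IDH2 KO females, against 4.05, 3.13, 2.64 and 1.84 CPM in WT females, and was called without IDH2 KO female 3 (adjusted p = 0.0177) but not with it (adjusted p = 0.096). *Ighv1-81*, a heavy chain variable gene, had 97 reads in IDH2 KO females and 2 in WT females, a 79.1-fold ratio with an exact 95% counting interval of 21.3 to 662 (adjusted p = 0.0113 without IDH2 KO female 3 and 0.0705 with it).

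All 9 constant and joining chain genes tested had a positive fold change, with a median of 2.06 on the log2 scale, and 5 of the 9 lay above all WT females (55.6%, against 3.09% of all genes tested). Among these were *Ighm*, at 25.2, 16.3 and 17.2 CPM in IDH2 KO females, against 7.03 to 11.2 CPM in WT females, and *Ighg2b* and *Ighg2c*, constant regions of IgG. Genes of the B cell surface did not separate: *Cd79a* had 1.43, 0.835 and 0.625 CPM in IDH2 KO females, against 0.0911 to 1.19 CPM in WT females, and *Ms4a1*, which encodes CD20, had 0.278 to 1.00 CPM in IDH2 KO females and 0.0429 to 0.620 CPM in WT females. The summed B and plasma cell markers were 81.7, 46.9 and 61.5 CPM in IDH2 KO females, against 14.0 to 22.5 CPM in WT females. Most of this sum came from the same constant and joining chain genes, at 76.9, 44.6 and 59.2 CPM in IDH2 KO females, against 13.4 to 20.6 CPM in WT females. In males the summed B and plasma cell markers ran the other way, with both IDH2 KO males below all WT males. They were 23.3 and 13.5 CPM in IDH2 KO males, against 126.8, 35.6 and 34.6 CPM in WT males. *Ighm* was 117, 31.1 and 31.3 CPM of this in the WT males. *Igha* and *Igkc* had positive log2 fold changes in males (0.87 and 0.84). The level thus also varied between mice of 1 genotype.

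Of the other blood cell markers, the neutrophil sum and the T and NK cell sum lay higher in IDH2 KO females. The neutrophil markers summed to 2.70, 2.50 and 3.54 CPM in IDH2 KO females, against 0.334 to 0.880 CPM in WT females, and the T and NK cell markers to 11.1, 6.47 and 9.59 CPM in IDH2 KO females, against 5.08 to 6.01 CPM in WT females. Both sums did not overlap between the groups, yet none of the 2 neutrophil and 8 T and NK cell markers tested was called. Above all WT females lay 1 of the 8 T and NK cell markers (12.5%) and 2 of the 2 neutrophil markers, against 3.09% of all genes tested. The T and NK cell list holds *Ptprcap* and *Trbc2*, which the study reported as higher in IDH2 KO mice from these same data. In males the neutrophil sum ran the other way, at 0.225 and 0.0522 CPM in IDH2 KO males and 0.558 to 0.709 CPM in WT males. The T and NK cell sum overlapped in males. Kupffer cell markers (376 to 775 CPM in IDH2 KO females, 164 to 599 CPM in WT females) and erythroid markers (147 to 294 CPM in IDH2 KO females, 114 to 240.3 CPM in WT females) overlapped between the groups. The part of blood or immune cell content in the immunoglobulin difference was not tested.

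**Figure D4:**
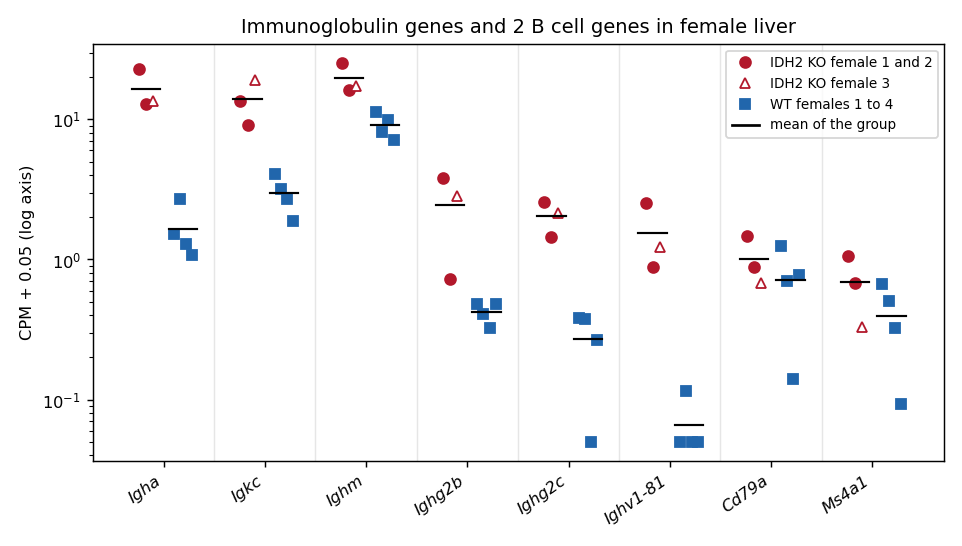
Level of immunoglobulin genes and of the B cell genes *Cd79a* and *Ms4a1* in each female library, as CPM plus 0.05 on a log axis, with IDH2 KO females left of WT females and a line at the mean of each group. The groups are apart for the 6 immunoglobulin genes, with *Igha* at 12.8 to 22.7 CPM in IDH2 KO females and 1.03 to 2.64 CPM in WT females, and overlap for *Cd79a* and *Ms4a1*.

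Several chaperone genes lay lower in IDH2 KO females. *Hspa8*, the abundant constitutive heat shock cognate protein, had 968, 995 and 1539.6 CPM in IDH2 KO females, against 1987, 2305, 2390.4 and 2038 CPM in WT females. The groups did not overlap, and *Hspa8* fell by 1.15 on the log2 scale without IDH2 KO female 3 (SE 0.20, adjusted p = 0.0314) and was not called with it (adjusted p = 0.834). *Sdf2l1*, a component of endoplasmic reticulum chaperone complexes, had 6.68, 9.23 and 12.1 CPM in IDH2 KO females, against 26.6, 15.9, 20.03 and 23.2 CPM in WT females, and fell by 1.43 without IDH2 KO female 3 (adjusted p = 0.0472; 0.671 with it). Both calls, of *Hspa8* and *Sdf2l1*, were lost when WT female 1, WT female 3 or WT female 4 was left out as well. *Hsp90aa1*, the inducible cytosolic HSP90, had 84.5, 154 and 123 CPM in IDH2 KO females, against 209 to 237 CPM in WT females. *Hspa1b*, an inducible HSP70, was at 0 to 0.417 CPM in IDH2 KO females and at 0.858 to 2.73 CPM in WT females. Neither was called in either fit.

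The heat shock and cold shock genes summed to 3487, 4387 and 5028 CPM in IDH2 KO females, against 5586 to 6562 CPM in WT females. Of 14 tested, 10 had a negative fold change (median -0.39), and of 15 chaperones and folding factors of the endoplasmic reticulum 13 did (median -0.41; -0.33 without IDH2 KO female 3). The endoplasmic reticulum sums overlapped, at 3869, 5843 and 5795.5 CPM in IDH2 KO females, against 4800 to 8331 CPM in WT females. *Creld2*, a stress-induced gene of that compartment, had 11.7, 25.8 and 28.6 CPM in IDH2 KO females, against 29.1 to 65.6 CPM in WT females and was not called. Of the stretches of 50 bases in *Hspa8*, 39.4% also occur in other transcripts, and for *Hspa1b* 62.3% are shared with *Hspa1a*.

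Genes outside these groups were called as well. *Cnbd2*, which encodes a cyclic nucleotide-binding domain protein, had 15.1, 24.6 and 106 CPM in IDH2 KO females, against 194, 84.6, 129 and 190.3 CPM in WT females. IDH2 KO female 3 was within the WT range and *Cnbd2* fell by 2.91 on the log2 scale without it (SE 0.39, adjusted p = 0.00999; 0.983 with it). *Rsrp1* had 8.38, 10.2 and 10.5 CPM in IDH2 KO females, against 25.3, 40.4, 30.7 and 47.0 CPM in WT females, with all 3 IDH2 KO females below (adjusted p = 0.0748 with 7 libraries and 0.00733 without IDH2 KO female 3). *Tsc22d3*, the glucocorticoid-induced leucine zipper, had 14.1, 10.8 and 18.5 CPM in IDH2 KO females, against 27.4 to 43.7 CPM in WT females, and fell by 1.49 without IDH2 KO female 3 (adjusted p = 0.0187). *Mettl7a2*, a methyltransferase-like gene, had 4.82, 1.98 and 1.04 CPM in IDH2 KO females and no read in any WT female. With 3 reads as the limit that a count of 0 allows over the 4 WT females, it was at least 96.7-fold higher in IDH2 KO females (adjusted p = 0.0014 without IDH2 KO female 3 and 0.0722 with it). Of its stretches of 50 bases, 63.2% also occur in other transcripts, most often those of *Mettl7a3*.

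*Hddc3* (chr7:80343104-80350547) lies 228 kb from *Idh2* and encodes a hydrolase described in human cells as an NADPH phosphatase. It had 6.75, 7.46 and 16.5 CPM in IDH2 KO females, against 1.62, 1.76, 1.82 and 0.944 CPM in WT females. All 3 IDH2 KO females lay above, and *Hddc3* rose by 2.21 on the log2 scale without IDH2 KO female 3 (SE 0.33, adjusted p = 0.00884), with an adjusted p of 0.0705 in all 7 libraries. Among the 15 tested genes within 1000 kb of *Idh2* it was the only one called, in the fit without IDH2 KO female 3. In that fit 0.163% of all genes tested were called higher and 0.176% lower. With all 7 libraries 9 of the 15 had a positive fold change, against 50% of all genes tested. *Ngrn*, 146 kb from *Idh2* and named after its values were seen, had 6.14, 7.15 and 16.3 CPM in IDH2 KO females, against 2.70 to 4.14 CPM in WT females (adjusted p = 0.631). The transcripts of *Gm18310* hold 57.1% of the stretches of 50 bases of *Hddc3*, so reads of the 2 genes may not be told apart.

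Several called genes are predicted loci with no product named in the files. *Gm15674*, annotated as an antisense RNA on chromosome 1 (130422824 to 130437914), had 10.1, 16.3 and 39.9 CPM in IDH2 KO females, against 0.686 to 1.86 CPM in WT females, and rose by 4.06 on the log2 scale (adjusted p = 0.0300; 0.000603 without IDH2 KO female 3). The use of strand in counting is not given in the sources used here, so its reads and those of the gene on the other strand cannot be told apart. *Gm40812* had 4.94, 10.6 and 11.9 CPM in IDH2 KO females, against 56.5 to 89.9 CPM in WT females, and fell by 2.95 on the log2 scale (adjusted p = 0.0289; 0.000668 without IDH2 KO female 3). *Gm41844* had 0.425, 1.04 and 0.208 CPM in IDH2 KO females, against 7.30 to 11.2 CPM in WT females, and fell by 3.94 (adjusted p = 0.0357; 0.00102 without IDH2 KO female 3). LOC108169013 had 0.27, 0.469 and 0.0695 CPM in IDH2 KO females, against 7.74 to 13.0 CPM in WT females, and fell by 5.13 (SE 0.58, adjusted p = 0.0155). LOC108169093 had 0.849, 5.84 and 1.04 CPM in IDH2 KO females, against 48.4 to 149.9 CPM in WT females, and fell with 7 libraries only (adjusted p = 0.0492; 0.269 without IDH2 KO female 3).

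Without IDH2 KO female 3, *Gm39701*, *Gm29919* and LOC108167858 were called lower, and *Gm9780* and LOC102637947 higher. LOC108167858 had no read in any IDH2 KO female and 125 in WT females. At the limit of 3 reads over the group, it was 25.6-fold lower in IDH2 KO females. The lower end of its exact 95% counting interval was 20.5-fold. *Gm29919* had 3 reads in IDH2 KO females and 161 in WT females, a 32.9-fold lower level with an exact 95% counting interval of 11.1 to 161. LOC102637947 had 27.3, 31.8 and 161 CPM in IDH2 KO females, against 10.5 to 15.7 CPM in WT females, where IDH2 KO female 3 was the highest. The call of LOC102637947 was lost when WT female 1, WT female 3 or WT female 4 was left out as well.

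Lipid synthesis genes mostly had negative fold changes and none was called. Of 19 fatty acid synthesis genes tested 18 were negative, with a median of -0.59 on the log2 scale, against 13 of 19 and -0.35 without IDH2 KO female 3. *Fasn*, the fatty acid synthase, had 200.2, 404 and 105 CPM in IDH2 KO females, against 387, 669.5, 640.4 and 297 CPM in WT females, so that IDH2 KO female 2 was above 2 of the WT females (adjusted p = 0.983). *Thrsp*, a regulator of lipogenesis, had 25.2, 38.4 and 16.8 CPM in IDH2 KO females, against 48.7, 59.4, 95.2 and 46.6 CPM in WT females. The groups did not overlap for *Thrsp*, with an adjusted p of 0.874 and of 0.375 without IDH2 KO female 3. *Dgat2*, the acyltransferase of triglyceride synthesis, had 321, 302 and 168 CPM in IDH2 KO females, against 325 to 519 CPM in WT females (adjusted p = 0.983).

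Of 14 cholesterol synthesis genes 11 had a negative fold change in each fit, with medians of -0.48 and -0.15. The study's qPCR panel has 15 genes, of which 8 were tested and none was called. *Rxra*, the retinoid X receptor alpha, was below all WT females in all 3 IDH2 KO females with 5 reads in IDH2 KO females and 48 in WT females, and *Acaca*, *Me1*, *Srebf1*, *Sirt1* and *Ppargc1a* had too few reads to be tested, with 0 to 6 reads in IDH2 KO females and 0 to 24 in WT females; *Cd36* and *Slc27a1* had none. *Idh1* and *Cd36*, which liver is known to express, were at 0 in all 12 libraries, so a count at or near 0 in this table may not reflect a low level of RNA. Of 8 tested NADPH-producing genes, a list that leaves out *Idh2* itself, and 23 fatty acid oxidation genes, none was called in either fit.

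For other groups the sign of the list depended on IDH2 KO female 3. Of 57 cytosolic ribosomal protein genes, 38 had a positive fold change with 7 libraries (median 0.12) and 3 without IDH2 KO female 3 (median -0.54). Their sum was 5963, 5250.0 and 16859 CPM in IDH2 KO females, against 6648 to 7817 CPM in WT females. Nuclear respiratory chain subunits turned the same way, with 33 of 57 positive (median 0.10) and 12 of 57 (median -0.29). *Lcn2*, a neutrophil and acute phase protein, had 13.5, 7.46 and 144 CPM in IDH2 KO females, against 5.46 to 9.65 CPM in WT females, and acute phase proteins had 16 of 26 positive with 7 libraries and 8 of 26 without IDH2 KO female 3. No gene of these lists was called in either fit.

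The genotype difference of females was set against that of the 2 IDH2 KO and 3 WT males, whose libraries are separate. In a fit of all 12 libraries, 0 of 8644 genes (0%) had a genotype difference that differed between the sexes at an adjusted p under 0.05 in edgeR, with 274 (3.17%) at an unadjusted p under 0.05, while DESeq2 called 10 and edgeR without IDH2 KO female 3 called 2, *Hsd3b5* and *Ugt1a5*. Nearest to the threshold was *Hsd3b5*, with log2 fold changes of -3.90 in females and -0.39 in males (difference -3.51, SE 0.52, adjusted p = 0.0779; DESeq2 adjusted p = 5.15e-05). Male livers had 148 and 334 CPM of *Hsd3b5* in IDH2 KO males and 226 to 434 CPM in WT males (scaled with all 12 libraries), far above both female groups. *Rsrp1* (-2.68, SE 0.49), *Hspa1b* (-5.26) and *Ighm* (3.99) had the next smallest p-values, each with an adjusted p of 0.2999. *Ighm* changed in opposite directions, with log2 fold changes of 1.10 in females and -2.89 in males. It had 11.6 and 4.49 CPM in IDH2 KO males, against 31.1 to 117 CPM in WT males.

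*Hspa8*, *Hsp90aa1*, *Hspa1b*, *Sdf2l1* and *Creld2* had opposite signs in the sexes. *Hspa1b* was at 6.79 and 29.5 CPM in IDH2 KO males and at 2.31 to 3.07 CPM in WT males, and *Hsp90aa1* at 287 and 620 CPM in IDH2 KO males and at 226 to 296 CPM in WT males. For *Hspa8*, *Hsp90aa1*, *Sdf2l1* and *Creld2* the unadjusted p of the difference between the sexes was between 0.00172 and 0.0044, and the adjusted p was 0.993 or higher. Of the early response genes, *Jun* had 48.0 and 161 CPM in IDH2 KO males and 4.89 to 9.33 CPM in WT males, with log2 fold changes of 1.13 in females and 3.89 in males (adjusted p of the difference 0.538), whereas *Id1* had 1.499 in females and -0.0061 in males. Of the 30 genes called in females with 7 libraries or without IDH2 KO female 3, 23 had the same sign in males. The share with the same sign was not computed over all genes tested. Some signs rest on few male reads: *Sult2a3* had 6 in IDH2 KO males and 0 in WT males, and *Ighv1-81* had 4 and 0. Of these 30, 6 were also called in males, where 0.0925% of 8644 genes were: *Idh2*, *Gm40812*, LOC108169013, *Junb*, *Jun* and *Zfp36*. *Sult2a1*, at 0.268 to 1.36 CPM in the male libraries, had log2 fold changes of 6.28 in females and 0.69 in males (difference 5.59, SE 1.38, adjusted p = 0.879 in edgeR and 0.00293 in DESeq2).

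**Figure D5:**
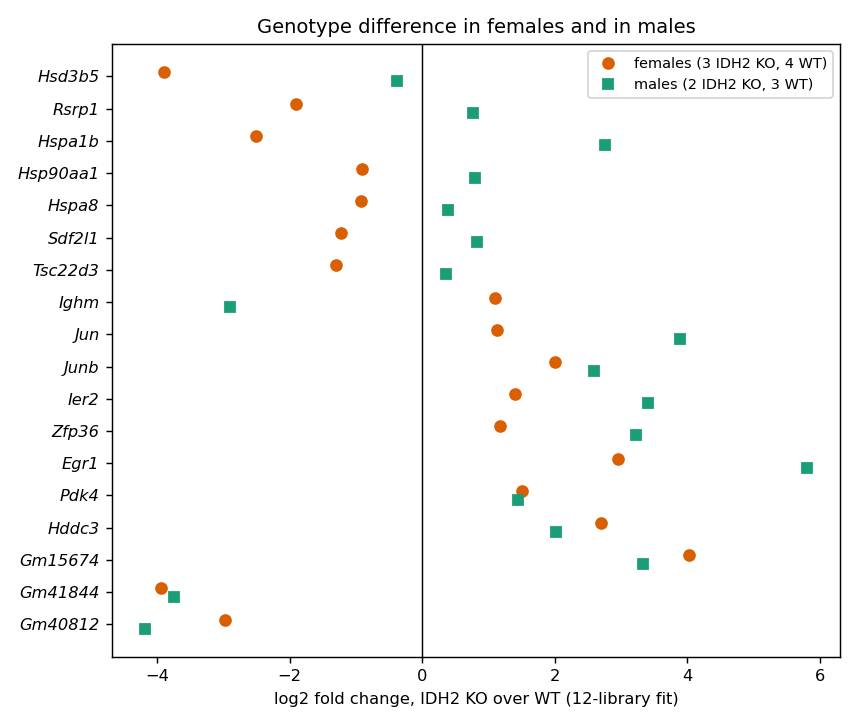
Log2 fold change of IDH2 KO over WT in females (circles) and in males (squares) from the fit of all 12 libraries, for genes named in the text. *Hspa1b*, *Hsp90aa1*, *Hspa8*, *Sdf2l1*, *Rsrp1*, *Tsc22d3* and *Ighm* lie on opposite sides of 0. *Jun*, *Junb*, *Ier2*, *Zfp36*, *Egr1*, *Pdk4* and *Hddc3* lie above 0 in both sexes. The log2 fold change of *Hsd3b5* is -3.90 in females and -0.39 in males. No difference passed the adjusted threshold in edgeR with 12 libraries.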

How the data were processed

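Liver RNA of 12 mice was sequenced as single-end reads of 50 bases from TruSeq libraries, and the 7 female libraries were compared here. The authors deposited raw read counts per gene, with no normalization; FastQC and GRCm38.p5 are named in the submitters' processing notes. Which aligner and counter made them is not given in the sources used here. A deposited table of 8730 filtered genes holds the same counts and was not used, and 0 columns of per-sample values were left aside. The study tested log2 RPM with an unequal-variance test, which was kept as an alternative.

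Counts of the 7 libraries were scaled by TMM, filtered with filterByExpr (minimum count 10, minimum total 15) and tested with edgeR 4.0.16 (robust quasi-likelihood, Benjamini-Hochberg, threshold 0.05) in R 4.3.3, with all libraries and again without IDH2 KO female 3. Standard errors come from the fold change and its F statistic. CPM are scaled by TMM, with factors from the 7 libraries for females and from all 12 for males. CPM of the sexes are thus not on exactly the same scale. DESeq2 1.42.0 and limma 3.58.1 served as alternatives, beside other scalings, other filters, a replicate block, library sizes without mitochondrial transcripts, all 12 libraries and each library left out. Scripts were tested on simulated data. Single values per library were compared by exact permutation over 35 splits (smallest p 0.0286). Exact 95% intervals and the limit of 3 reads for a count of 0 cover counting error only, and p-values measure the spread between mice. No pair of libraries agreed within sampling noise.

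The members and gene lists were chosen with earlier results of these data known. The sum of a list, and its share above or below all WT females, are thus descriptions and not tests. Lists of respiratory chain subunits, ribosomal proteins, mitochondrial DNA transcripts, immunoglobulin genes, the Sult2a, Hsd3b, Mup and Cyp4a families and endoplasmic reticulum chaperones were added after values were seen. Named genes are the isocitrate dehydrogenases, all genes called in either fit, genes called in the test between the sexes, up to 4 members of each list (called ones, then by p) and the qPCR panel; others are marked as named after their values were seen. Coordinates come from GENCODE M21 (51 of 59 genes matched), and start windows from RefSeq on GRCm38.p6. Python 3.11.15, scipy 1.17.1, Biopython 1.88 and matplotlib 3.10.9 were used.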

Additional observations from a re-analysis of the deposited data

Results flagged for a closer look

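Among WT females, 4 of 63 groups of 4 libraries checked held a library apart from the other 3, judged by gap over range. For continuous values chance gives about 1 in 20. *Jun* was at 3.68 CPM in WT female 2 and between 3.39 and 3.43 CPM in the others. *Gm9780* was at 4.29 CPM in WT female 1 and between 2.00 and 2.23 CPM in the others. *Sult2a3* was at 0.0429 CPM, a single read, in WT female 4 and at 0 in the others. *Ighv1-81* was at 0.0652 CPM in WT female 2 and at 0 in the others. With the other libraries at 0, any read of *Sult2a3* or *Ighv1-81* is flagged, so the rate of 1 in 20 does not apply to these genes. Groups of 3 libraries were not checked in this way.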

How the results depend on the processing

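Counts of genes higher and lower in IDH2 KO females, 5 and 6 with 7 libraries, were 3 higher with no scaling factors, 15 higher and 18 lower with no filter on low counts, 29 higher and 23 lower in DESeq2, 11 lower in limma and 8 higher with all 12 libraries. The unequal-variance test on log2 RPM called 0 higher and 0 lower, with 284 genes at an unadjusted p under 0.05. With 1 library left out in turn, 0 to 13 genes were higher and 1 to 14 lower. Without IDH2 KO female 3, DESeq2 called 42 higher and 53 lower, and leaving out a WT library as well gave 7 to 26 higher and 10 to 20 lower. Leaving out IDH2 KO female 1 or 2 as well left 1 IDH2 KO library, assumed to vary like the WT females, and gave 4 and 16 higher and 5 and 27 lower. These alternatives were chosen after seeing the data. The genotype difference between the sexes gave 10 calls in DESeq2 and 2 without IDH2 KO female 3. The cause of these shifts was not tested. With the replicate number as a block, 1 gene was higher and 1 lower. Same-numbered libraries did not deviate together (correlations -0.16, 0.00 and -0.19), so the numbers give no pairing. Without scaling the median fold change was -0.18 and under limma -0.16. With 1 library left out in turn, *Idh3a* ranged from -0.64 to 0.016 and *Idh3g* from -0.80 to 0.11, both positive without IDH2 KO female 3, and *Zfp36l2* was at -0.15 under limma and under the unequal-variance test. Genes with few reads, such as *Rxra* and *Acaca*, have wide counting error; why their counts are low was not tested.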

Other observations

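Major urinary protein genes, which encode pheromone carriers secreted by the liver, varied widely among the IDH2 KO females. Their sum was 983, 2058 and 9218 CPM in IDH2 KO females, against 3159 to 4660.4 CPM in WT females. *Mup3* had 879, 1773 and 6876 CPM in IDH2 KO females, against 3802, 3532, 3095 and 4336 CPM in WT females (adjusted p = 0.983 with 7 libraries and 0.0621 without IDH2 KO female 3). *Mup17* had 94.5, 257 and 2276 CPM in IDH2 KO females, against 68.8, 32.8, 35.2 and 280.4 CPM in WT females (adjusted p = 0.983). IDH2 KO female 3 was the highest female library for both.

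*Nr1d1*, the circadian repressor REV-ERB alpha, had 217, 216 and 128 CPM in IDH2 KO females, against 131, 117, 145 and 122 CPM in WT females, with IDH2 KO female 3 inside the WT range (adjusted p = 0.983 with 7 libraries and 0.125 without IDH2 KO female 3). *Thra*, the thyroid hormone receptor alpha, had 17.7, 13.0 and 37.0 CPM in IDH2 KO females, against 8.97 to 10.9 CPM in WT females (adjusted p = 0.869). *Keg1* had 15.1, 53.8 and 5.49 CPM in IDH2 KO females, against 68.1 to 86.8 CPM in WT females (adjusted p = 0.983). *Ugt1a5*, a glucuronosyltransferase, had 91.8, 102 and 8.20 CPM in IDH2 KO females, against 65.1 to 99.4 CPM in WT females; the male libraries were at 15.1 and 11.1 CPM in IDH2 KO males, against 60.8, 45.1 and 46.9 CPM in WT males.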
